A study of Mus musculus with 12 samples.

Results

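Red blood cell (RBC) exposure of macrophages from chow-fed mice was followed on 6 of the 12 arrays of the series: 2 of macrophages kept without RBC, 2 of macrophages given RBC of chow-fed mice and 2 of macrophages given RBC of mice on a high-fat diet. The comparison takes the 4 exposed minus the 2 unexposed arrays over all 19938 genes with a probe set assigned to a single symbol, out of 35556 probe sets with values. All donors were C57BL/6 mice, put on their diet for 12 weeks from the age of 6 weeks. The macrophages were elicited with thioglycollate, washed from the peritoneum and exposed in vitro. No gene was altered in any group. The other 6 arrays hold the same 3 conditions in macrophages of mice on the high-fat diet. The labels number the arrays of a group as animals 1 and 2, and do not say whether a number is the same animal in different groups. The time with RBC, their number and how they were cleaned of other blood cells are not given in the labels.

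Macrophages clear aged and damaged RBC by engulfing them, a process called erythrophagocytosis, which is best known in the spleen, liver and bone marrow. Heme from the digested hemoglobin is opened by heme oxygenase 1 (Hmox1), and the iron is stored in ferritin or exported through ferroportin (Slc40a1). Peritoneal macrophages drawn out by thioglycollate are recruited inflammatory cells, in which NF-kB and interferon signalling set the level of many chemokines and cytokines.

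Values are log2 signals, and differences are log2 differences (exposed minus unexposed) ± SE from a limma fit across all genes, with adjusted p after Benjamini-Hochberg correction over the 19938 genes; a gene was called at an adjusted p below 0.05. Replicates of the chow macrophage groups differed by a standard deviation of 0.15 to 0.19 over genes. The transcripts of the RBC themselves checked the labels. The 4 probe sets shared by several adult globin genes lay between 4.17 and 5.51 on the unexposed and between 11.30 and 12.28 on the exposed arrays. Macrophage markers were high on all 6 arrays, with Cd68, a lysosomal membrane glycoprotein, at 12.09 and 12.14 without RBC, 12.13 and 12.12 after chow RBC, and 12.16 and 12.12 after high-fat RBC. Adgre1, which codes for the F4/80 surface antigen, read 10.08 and 10.21 without RBC, 9.53 and 9.39 after chow RBC, and 9.52 and 9.43 after high-fat RBC, and fell by 0.68 ± 0.09 (adjusted p = 0.000308). Csf1r, the receptor for the growth factor of macrophages, fell by 0.41 ± 0.09 (adjusted p = 0.00607); without unexposed replicate 2 its adjusted p was 0.0955. Of 20 macrophage identity genes, 1 rose, 5 fell and 14 did not pass, with a median difference of -0.04 (3 fell without unexposed replicate 1).

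Exposure changed the expression of 2539 of the 19938 genes (12.7%): 1639 were higher (8.22%) and 900 lower (4.51%). These shares are the background for the counts of called members of every gene list. A list with shares near them shows no more calls than genes at large. The median difference over all genes was -0.03. Most changes were small, since 172 called genes differed by a factor of 2 or more, 83 of them higher and 89 lower. In 2523 of the called genes the exposed and unexposed arrays did not overlap, and in 16 they did. Arrays without overlap were common among all genes too, at 40.8%, with the exposed arrays higher in 20.2% and lower in 20.6%. The count depended on the unexposed arrays: 1673 genes were called without unexposed replicate 1 and 956 without unexposed replicate 2, and 924 of these 956 were called in the same direction with all arrays. The falls numbered 557 without high-fat RBC replicate 2 and 349 without unexposed replicate 2. In none of the 13 other fits tried was one of these genes called in the opposite direction. The falls were led by genes of inflammatory signalling, and the rises by transcripts typical of blood cells and by genes of contractile and matrix-associated proteins.

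**Figure D1:**
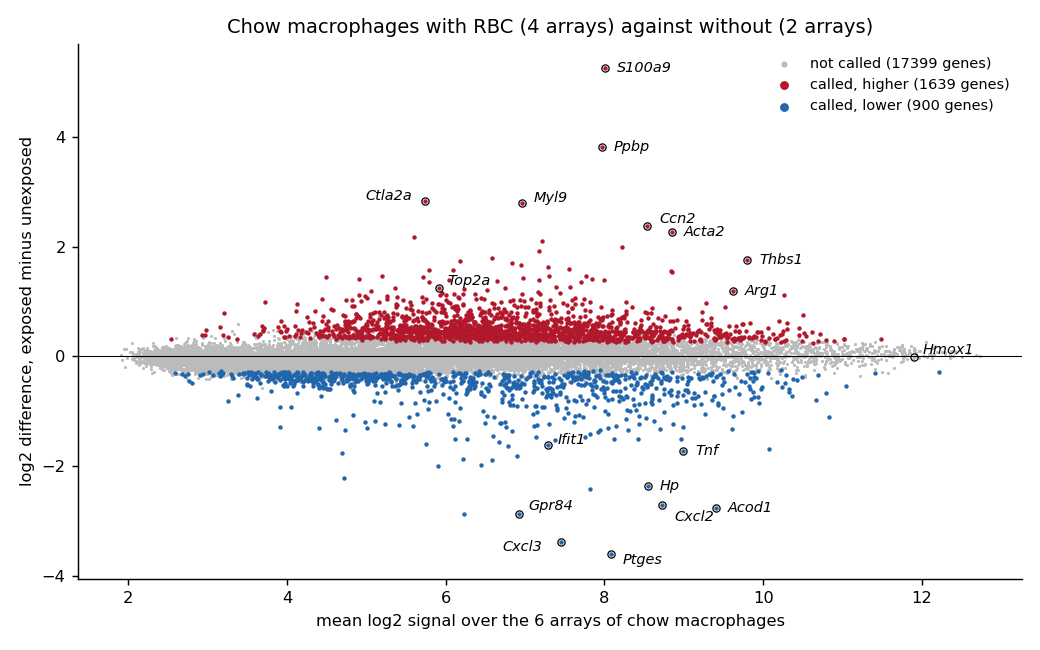
Each point is a gene, with its mean log2 signal over the 6 arrays of chow macrophages on the horizontal axis and its log2 difference, 4 exposed minus 2 unexposed arrays, on the vertical axis. Red points (1639 genes) were called higher, blue points (900 genes) lower; S100a9 (5.24) and Ptges (-3.60) are the extremes, and Hmox1 (-0.01) lies near 0.

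The largest fall was in Ptges, the inducible synthase of prostaglandin E2. Its log2 signal was 10.41 and 10.55 without RBC, 6.87 and 7.10 after chow RBC, and 6.81 and 6.74 after high-fat RBC. It fell by 3.60 ± 0.12 (adjusted p = 5.61e-10), a 12.1-fold difference, and the exposed arrays lay at least 3 log2 units under the unexposed ones. Ptgs2, the cyclooxygenase that acts before it, differed far less: it read 8.57 and 8.59 without RBC, 8.18 and 8.29 after chow RBC, and 8.07 and 8.35 after high-fat RBC and fell by 0.36 ± 0.10 (adjusted p = 0.038), a call lost without either unexposed array, chow RBC replicate 1 or high-fat RBC replicate 1 (adjusted p = 0.0987 to 0.223). Of 18 genes of prostaglandin synthesis and reception, 1 rose, 4 fell and 13 did not pass, with a median difference of -0.07 (2 rose without chow RBC replicate 2 and 0 rose without unexposed replicate 2, and 1 fell without either unexposed array).

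Acod1, whose product makes itaconate from a citric acid cycle intermediate in activated macrophages, read 11.28 and 11.21 without RBC, 8.48 and 8.39 after chow RBC, and 8.24 and 8.82 after high-fat RBC. It fell by 2.76 ± 0.16 (adjusted p = 8.35e-08). Gpr84, a receptor for medium-chain fatty acids, read 8.87 and 8.80 without RBC, 6.34 and 6.39 after chow RBC, and 5.52 and 5.63 after high-fat RBC and fell by 2.86 ± 0.10 (adjusted p = 6.57e-10). For both genes every exposed array lay below both unexposed arrays, as in 20.6% of all genes. Slc7a2, which imports arginine, fell by 1.46 ± 0.08 (adjusted p = 9.51e-08), and Gch1, which makes the cofactor of nitric oxide synthase, by 0.71 ± 0.13 (adjusted p = 0.00271). Nos2, the inducible nitric oxide synthase, was not called (-0.05 ± 0.14, adjusted p = 0.868), with a mean signal of 4.50 unexposed and 4.45 exposed. Both means were low, under the median over genes of each chow macrophage array (5.24 to 5.29). In the opposite direction, Arg1, which turns arginine into ornithine and urea, read 8.96 and 8.70 without RBC, 10.44 and 9.94 after chow RBC, and 9.95 and 9.74 after high-fat RBC and rose by 1.19 ± 0.13 (adjusted p = 4.65e-05). Odc1, which makes putrescine from ornithine, rose by 0.65 ± 0.10 (adjusted p = 0.000438). Over the 15 genes of inflammatory metabolism and metabolite receptors, 3 rose, 6 fell and 6 did not pass, with a median difference of -0.08.

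**Figure D2:**
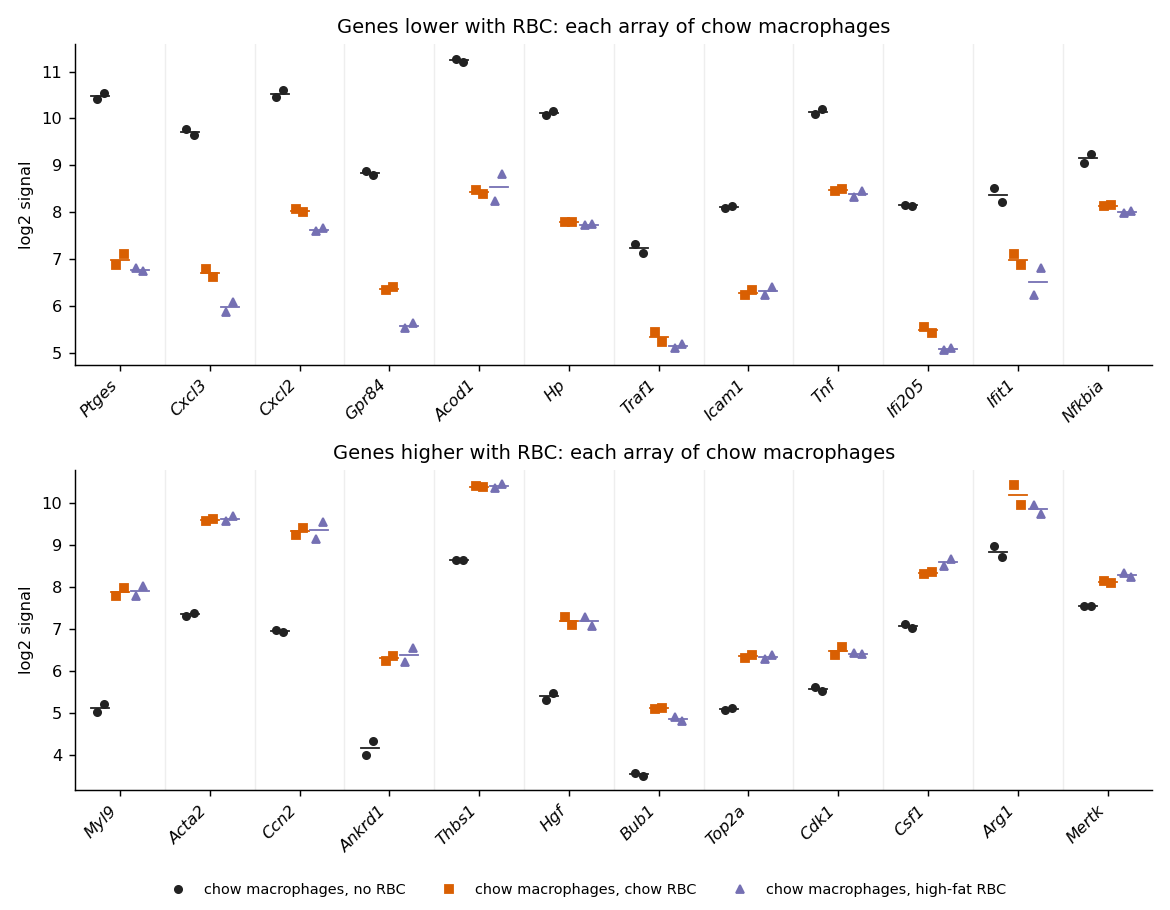
Log2 signal of 12 genes that fell and 12 that rose with RBC, on each of the 6 arrays of chow macrophages; symbols are arrays, short bars the means of 2 arrays of a group. Ptges lies lowest in its exposed arrays relative to its unexposed ones, and Myl9 highest among the 12 that rose.

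Neutrophil-attracting CXC chemokines were among the largest falls. Cxcl3 read 9.77 and 9.64 without RBC, 6.79 and 6.61 after chow RBC, and 5.86 and 6.08 after high-fat RBC, and fell by 3.37 ± 0.19 (adjusted p = 7.77e-08). Cxcl2 read 10.46 and 10.60 without RBC, 8.06 and 8.004 after chow RBC, and 7.59 and 7.66 after high-fat RBC, and fell by 2.70 ± 0.13 (adjusted p = 2.01e-08). In both genes the arrays given high-fat RBC were the lowest, although no difference between the 2 kinds of RBC was called. Cxcl1 fell by 1.19 ± 0.10 (adjusted p = 5.56e-06), and Cxcl10, a chemokine for T cells that interferon induces, by 1.87 ± 0.20 (adjusted p = 2.79e-05). Cxcl12, which holds CXCR4-bearing cells in tissues, rose by 1.21 ± 0.11 (adjusted p = 6.39e-06), as did Cxcl14 (0.80 ± 0.09, adjusted p = 4.14e-05). Of 12 CXC chemokines, 2 rose, 7 fell and 3 did not pass, with a median difference of -0.57. Of 16 CC chemokines and receptors, 1 rose, 7 fell and 8 did not pass, with a median difference of -0.14. Falls made up 58.3% and 43.8% of these 2 lists, beside 4.51% of all genes. Ccl5, Ccl3 and Ccl4, which attract T cells and monocytes, fell by 1.10 ± 0.12 (adjusted p = 5.07e-05), 1.02 ± 0.08 (adjusted p = 1.31e-06) and 0.82 ± 0.10 (adjusted p = 0.000136). Ccl2, the main attractant of monocytes, was not called (0.04 ± 0.16, adjusted p = 0.889), and its exposed arrays, at 7.995 to 8.32, overlapped the unexposed ones at 8.33 and 7.98. The single CC gene that rose, Ccl22, lost its call without either unexposed array, either chow RBC array or high-fat RBC replicate 2 (adjusted p = 0.0679 to 0.371).

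Among cytokines the direction was mixed. Tnf, the main inflammatory cytokine of macrophages, read 10.09 and 10.19 without RBC, 8.44 and 8.49 after chow RBC, and 8.31 and 8.45 after high-fat RBC, and fell by 1.72 ± 0.09 (adjusted p = 6.32e-08). Il1a fell by 1.22 ± 0.10 (adjusted p = 2.24e-06). Il1b was not called (0.27 ± 0.13, adjusted p = 0.192). Csf1, the growth factor of macrophages, read 7.11 and 7.01 without RBC, 8.30 and 8.35 after chow RBC, and 8.50 and 8.65 after high-fat RBC and rose by 1.39 ± 0.09 (adjusted p = 1.75e-07). Vegfa, the main angiogenic factor, rose by 0.89 ± 0.13 (adjusted p = 0.000411). Il6 also rose (0.78 ± 0.14, adjusted p = 0.00172), but at a low signal, 2.66 and 2.71 without RBC, 3.37 and 3.56 after chow RBC, and 3.54 and 3.38 after high-fat RBC. Of 23 cytokines, 5 rose, 4 fell and 14 did not pass, with a median difference of -0.08 (3 rose without unexposed replicate 1, and 2 fell without unexposed replicate 2).

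Components of the NF-kB pathway fell almost as a set. Of 18 measured members, 0 rose, 16 fell and 2 did not pass, with a median difference of -0.72, beside 4.51% of all genes lower, and in all 18 the exposed arrays lay below the unexposed ones, as they did in 20.6% of all genes. Traf1, an adaptor of TNF receptors and itself an NF-kB target, read 7.32 and 7.13 without RBC, 5.43 and 5.22 after chow RBC, and 5.10 and 5.19 after high-fat RBC and fell by 1.99 ± 0.10 (adjusted p = 2.01e-08). The inhibitors Nfkbie, Nfkbia and Nfkbib, which hold NF-kB in the cytoplasm, fell by 1.63 ± 0.11 (adjusted p = 3.7e-07), 1.07 ± 0.13 (adjusted p = 7.64e-05) and 0.65 ± 0.08 (adjusted p = 0.000156). The subunits Relb, Nfkb2 and Rel fell by 0.87 ± 0.13 (adjusted p = 0.000471), 0.79 ± 0.09 (adjusted p = 5.43e-05) and 0.55 ± 0.10 (adjusted p = 0.00175). Birc3 and Cflar, which restrain death signalling from TNF receptors, fell by 0.88 ± 0.12 (adjusted p = 0.000212) and 0.86 ± 0.10 (adjusted p = 6.39e-05). Fas, a death receptor, fell by 1.503 ± 0.13 (adjusted p = 5.7e-06), the largest change among 14 apoptosis regulators (1 rose, 3 fell and 10 did not pass, with a median difference of 0.08; 0 rose without unexposed replicate 2). Among 19 leukocyte adhesion molecules, 2 rose, 5 fell and 12 did not pass, with a median difference of 0.03 (1 rose without either unexposed array, and 3 fell without unexposed replicate 2). Icam1, which leukocyte integrins bind, read 8.08 and 8.13 without RBC, 6.23 and 6.33 after chow RBC, and 6.22 and 6.40 after high-fat RBC and fell by 1.81 ± 0.09 (adjusted p = 1.78e-08), and Vcam1, the ligand of integrin alpha 4, fell by 1.14 ± 0.10 (adjusted p = 5.63e-06).

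Promoters of 3 genes of this group are shown because they carry the sequence that NF-kB binds. The capitals mark the kB site, searched on both strands in the 250 bases before the start of each gene; overlapping matches are merged. Positions and sequences are from RefSeq (GRCm38.p6), and each window ends at the base before the start.
Cxcl2 (chr5:90903769-90903898, plus strand): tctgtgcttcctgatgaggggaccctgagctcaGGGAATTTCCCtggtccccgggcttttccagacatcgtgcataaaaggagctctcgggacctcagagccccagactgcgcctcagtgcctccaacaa
Cxcl3 (chr5:90785971-90786100, plus strand): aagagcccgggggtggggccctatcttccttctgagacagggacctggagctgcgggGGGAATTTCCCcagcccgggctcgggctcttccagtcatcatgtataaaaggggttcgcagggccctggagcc
Nfkbia (chr12:55492648-55492777, minus strand): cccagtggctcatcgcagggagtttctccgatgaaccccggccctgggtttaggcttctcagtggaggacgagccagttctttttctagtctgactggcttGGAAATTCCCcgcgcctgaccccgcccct
Cxcl2 and Cxcl3 held a kB site that opens 97 and 73 bases before the start, and Nfkbia one that opens 29 bases before it. A kB site was found in 7 of 15 promoters (46.7%) of the NF-kB components that the RefSeq table holds and in 4 of 9 promoters (44.4%) of CXC chemokines, against 7.01% of all 27025 promoters in the table. The site was not particular to lists that fell. It also stood in 6 of 16 promoters (37.5%) of the cytokines, among them Il6, Csf1 and Vegfa, which rose. Such a match describes the sequence only.

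Receptors that sense microbes fell in part. Tlr2, the receptor for bacterial lipoproteins, read 9.15 and 9.09 without RBC, 7.63 and 7.81 after chow RBC, and 7.60 and 7.44 after high-fat RBC, and fell by 1.5005 ± 0.12 (adjusted p = 1.66e-06). Nlrp3, the sensor of an inflammasome, read 7.46 and 7.67 without RBC, 6.20 and 6.18 after chow RBC, and 6.13 and 5.97 after high-fat RBC, and fell by 1.44 ± 0.09 (adjusted p = 2.32e-07). Irak3, a brake on Toll-like receptor signalling, fell by 1.17 ± 0.11 (adjusted p = 7.93e-06) and the adaptor Myd88 by 0.61 ± 0.09 (adjusted p = 0.000427). Tlr8, an endosomal receptor for RNA, rose by 1.03 ± 0.13 (adjusted p = 0.000116). Of 24 such genes, 3 rose, 8 fell and 13 did not pass, with a median difference of -0.12 (1 rose without unexposed replicate 2). Of 17 C-type lectin receptors, 1 rose, 3 fell and 13 did not pass, with a median difference of -0.07 (2 rose without unexposed replicate 1). Clec4e (Mincle), which binds mycobacterial glycolipid, fell by 1.68 ± 0.10 (adjusted p = 9.75e-08) and Clec5a by 1.36 ± 0.14 (adjusted p = 1.82e-05), whereas Clec7a (Dectin-1), the receptor for fungal beta-glucan, rose by 0.65 ± 0.09 (adjusted p = 0.000194). Among the 15 largest falls, 3 genes belonged to no list, namely Tarm1 (an activating receptor of myeloid cells, -2.41 ± 0.09, adjusted p = 1.68e-09), Rasgrp1 (an activator of Ras, -2.20 ± 0.11, adjusted p = 2.01e-08) and Flrt3 (a transmembrane protein, -1.98 ± 0.12, adjusted p = 1.04e-07).

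Interferon-stimulated antiviral genes were lower with RBC of either kind. Of 32 measured, 0 rose, 26 fell and 6 did not pass, with a median difference of -0.72, beside 4.51% of all genes lower. Ifi205, a nuclear protein of the p200 family, read 8.16 and 8.13 without RBC, 5.55 and 5.41 after chow RBC, and 5.06 and 5.10 after high-fat RBC, and fell by 2.86 ± 0.10 (adjusted p = 6.57e-10). Ifit1, which binds viral RNA that lacks the host's cap methylation, read 8.51 and 8.23 without RBC, 7.11 and 6.86 after chow RBC, and 6.24 and 6.80 after high-fat RBC, and fell by 1.62 ± 0.17 (adjusted p = 2.85e-05). Ifit2, Ifit3, Oasl1 and Rsad2 fell by 1.88 ± 0.24 (adjusted p = 0.000149), 1.33 ± 0.19 (adjusted p = 0.000421), 1.08 ± 0.15 (adjusted p = 0.000354) and 0.98 ± 0.15 (adjusted p = 0.000569). In all 6 genes the exposed arrays lay below the unexposed ones, as they did in 20.6% of all genes. Such a gap was usual among called genes, since 2523 of 2539 showed no overlap. High-fat RBC replicate 1 was below high-fat RBC replicate 2 in all 6. The RNA sensors Ddx58 (RIG-I) and Ifih1 (MDA5) fell by 0.74 ± 0.10 (adjusted p = 0.000194) and 0.70 ± 0.10 (adjusted p = 0.000501). Stat2, which carries the type I interferon signal, fell by 0.55 ± 0.10 (adjusted p = 0.00211). Of 23 interferon receptors, regulatory factors and STATs, 0 rose, 7 fell and 16 did not pass, with a median difference of -0.16 (3 fell without unexposed replicate 2).

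Guanylate-binding proteins, GTPases induced by interferon gamma, showed a spread within the group given high-fat RBC. Gbp5 read 5.92 and 5.81 without RBC, 3.88 and 3.86 after chow RBC, and 3.86 and 4.82 after high-fat RBC, and Gbp3 read 6.93 and 6.79 without RBC, 5.70 and 5.40 after chow RBC, and 5.51 and 6.27 after high-fat RBC. They fell by 1.76 ± 0.18 (adjusted p = 2.72e-05) and 1.14 ± 0.17 (adjusted p = 0.000468), and high-fat RBC replicate 2 was the highest of the 4 exposed arrays for both. The transcription factor Irf1 followed the same order, at 8.11 and 7.94 without RBC, 6.90 and 6.83 after chow RBC, and 6.77 and 7.89 after high-fat RBC; it fell by 0.93 ± 0.20 (adjusted p = 0.00844), a call lost without either unexposed array (adjusted p = 0.0561 to 0.082). Of 10 genes of these GTPase families, 0 rose, 3 fell and 7 did not pass, with a median difference of -0.29.

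Both Ifit genes below hold several copies of the core of the interferon-stimulated response element (ISRE), written GAAANNGAA on either strand and shown in capitals; neighbouring copies can overlap.
Ifit1 (chr19:34640759-34640888, plus strand): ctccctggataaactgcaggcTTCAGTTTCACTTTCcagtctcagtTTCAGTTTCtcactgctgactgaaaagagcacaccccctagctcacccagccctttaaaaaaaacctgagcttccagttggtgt
Ifit3 (chr19:34583349-34583528, plus strand): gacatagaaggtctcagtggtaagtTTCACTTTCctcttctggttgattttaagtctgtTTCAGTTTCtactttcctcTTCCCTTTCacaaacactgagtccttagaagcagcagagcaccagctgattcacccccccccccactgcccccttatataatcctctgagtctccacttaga
The core was found in 11 of 24 promoters (45.8%) of the interferon-stimulated genes and in 5 of 5 promoters (100%) of the guanylate-binding protein and GTPase genes in the RefSeq table, against 7.16% of all promoters.

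Genes of antigen presentation to CD4+ T cells fell. Of 14 genes of MHC class II and costimulation, 0 rose, 8 fell and 6 did not pass, with a median difference of -0.41, beside 4.51% of all genes lower. The class II chains H2-Ab1, H2-Aa and H2-Eb1 fell by 0.93 ± 0.12 (adjusted p = 0.000216), 0.77 ± 0.10 (adjusted p = 0.000126) and 0.999 ± 0.14 (adjusted p = 0.000376), and Cd74, the invariant chain that guides them, by 0.84 ± 0.11 (adjusted p = 0.000142). Cd40, a costimulatory receptor, read 7.27 and 7.33 without RBC, 6.18 and 6.06 after chow RBC, and 5.96 and 6.16 after high-fat RBC and fell by 1.21 ± 0.09 (adjusted p = 1.31e-06). Cd86 fell by 0.65 ± 0.09 (adjusted p = 0.000198). B cells also make class II, and some of their markers were lower too: of 14, 0 rose, 6 fell and 8 did not pass, with a median difference of -0.24 (1 rose without chow RBC replicate 1). The mean level of the B cell list was 5.04 to 5.08 on the unexposed and 4.64 to 4.84 on the exposed arrays. Ms4a1 (CD20) read 4.53 and 4.51 without RBC, 3.86 and 3.61 after chow RBC, and 3.55 and 3.41 after high-fat RBC, and fell by 0.91 ± 0.12 (adjusted p = 0.000206). Cd79b, a chain of the B cell receptor, fell by 0.68 ± 0.11 (adjusted p = 0.000807), and Pax5, which sets B cell identity, was not called (-0.16 ± 0.09, adjusted p = 0.247). The part of B cells in the class II result was not tested. In bulk samples fewer cells of a type and less RNA per cell cannot be told apart. Of 10 genes of MHC class I and peptide loading, 0 rose, 2 fell and 8 did not pass, with a median difference of -0.18 (1 fell without unexposed replicate 1, either chow RBC array or high-fat RBC replicate 1 and 0 fell without unexposed replicate 2).

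Targets of ATF4, the transcription factor of amino acid and protein folding stress, fell in part. Asns, which makes asparagine, read 8.85 and 8.81 without RBC, 7.55 and 7.44 after chow RBC, and 7.59 and 7.40 after high-fat RBC, and fell by 1.34 ± 0.09 (adjusted p = 3.03e-07). Nupr1, a stress-induced nuclear protein, read 8.86 and 8.81 without RBC, 7.53 and 7.58 after chow RBC, and 7.42 and 7.29 after high-fat RBC, and fell by 1.38 ± 0.09 (adjusted p = 2.36e-07). Mthfd2, a mitochondrial enzyme of folate metabolism, fell by 1.003 ± 0.09 (adjusted p = 9.77e-06), Trib3, a pseudokinase, by 0.78 ± 0.08 (adjusted p = 2.99e-05), and Slc7a11, the cystine importer, by 0.72 ± 0.09 (adjusted p = 0.000142). In these 5 genes the 4 exposed arrays lay below both unexposed ones, as in 20.6% of all genes. All 5 were called, and 2523 of the 2539 called genes showed no overlap in either direction. Of 24 such genes, 0 rose, 10 fell and 14 did not pass, with a median difference of -0.26, beside 4.51% of all genes lower. The promoter of Nupr1 is shown with the ATF4 and C/EBP element, TTGCATCA on either strand, in capitals.
Nupr1 (chr7:126625471-126625600, minus strand): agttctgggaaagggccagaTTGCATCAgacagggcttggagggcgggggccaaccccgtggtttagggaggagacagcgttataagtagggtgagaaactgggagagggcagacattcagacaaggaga
This element stood in 4 of 19 promoters (21.1%) of the ATF4 list in the RefSeq table and in 0.818% of all promoters. Chaperones and folding enzymes of the endoplasmic reticulum went the other way: of 21, 7 rose, 1 fell and 13 did not pass, with a median difference of 0.25, led by the disulfide isomerase Pdia4 (0.72 ± 0.09, adjusted p = 0.00016). The count depended on single arrays (3 rose without high-fat RBC replicate 1, 2 rose without unexposed replicate 1 and 1 rose without unexposed replicate 2, and 0 fell without unexposed replicate 2 or high-fat RBC replicate 1).

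**Figure D3:**
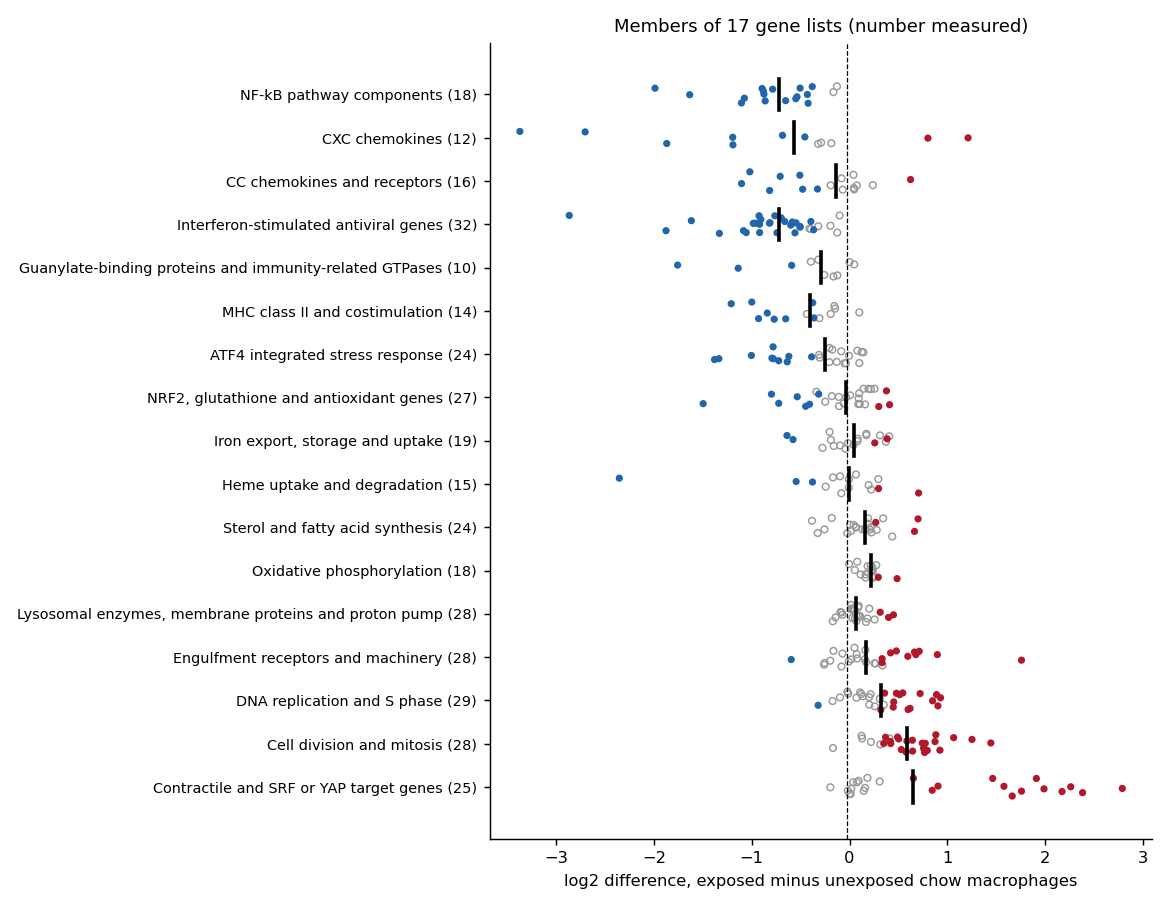
Log2 differences, exposed minus unexposed chow macrophages, of the measured members of 17 gene lists (numbers in parentheses); filled points were called (red higher, blue lower), open grey points were not, black bars are list medians and the dashed line is the median of all genes (-0.03). The medians run from -0.72 for interferon-stimulated genes to 0.65 for contractile genes.

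Of all the lists, the median difference was highest for genes of contractile and matrix-associated proteins, which the actin-sensing factors SRF and YAP with TEAD are known to drive. Of 25 measured, 13 rose, 0 fell and 12 did not pass, with a median difference of 0.65, beside 8.22% of all genes higher. Myl9, a regulatory light chain of myosin, read 5.004 and 5.20 without RBC, 7.79 and 7.96 after chow RBC, and 7.78 and 8.02 after high-fat RBC. It rose by 2.79 ± 0.11 (adjusted p = 2.74e-09), a 6.91-fold difference. Acta2, smooth muscle actin, read 7.31 and 7.38 without RBC, 9.57 and 9.61 after chow RBC, and 9.56 and 9.68 after high-fat RBC, and rose by 2.26 ± 0.11 (adjusted p = 1.78e-08). The exposed arrays of both genes agreed among themselves to within 0.3 log2 units and lay far above the unexposed ones. Tagln and Tpm2, which bind actin filaments, rose by 1.91 ± 0.10 (adjusted p = 4.47e-08) and 1.66 ± 0.13 (adjusted p = 1.66e-06). The secreted proteins Ccn2 and Ccn1 and the muscle ankyrin repeat protein Ankrd1, all YAP targets, rose by 2.38 ± 0.14 (adjusted p = 9.51e-08), 1.99 ± 0.11 (adjusted p = 7.78e-08) and 2.17 ± 0.13 (adjusted p = 9.51e-08). Thbs1, a matrix glycoprotein that also links dying cells to phagocytes, rose by 1.76 ± 0.09 (adjusted p = 2.54e-08). Outside the list, Fermt2, which activates integrins, rose by 1.73 ± 0.10 (adjusted p = 9.54e-08) and Tead1, the DNA-binding partner of YAP (chosen after its value was seen), by 1.25 ± 0.09 (adjusted p = 8.48e-07).

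Markers of fibroblasts and mesothelial cells were given beside these genes, since such cells line the peritoneum and hold contractile proteins. Of 15, 4 rose, 0 fell and 11 did not pass, with a median difference of 0.11, and the mean level of the list was 5.36 to 5.42 on the unexposed and 5.50 to 5.63 on the exposed arrays. Col1a2 and Col1a1, the chains of type I collagen, rose by 0.80 ± 0.08 (adjusted p = 1.73e-05) and 0.65 ± 0.09 (adjusted p = 0.00039), and Wt1, a transcription factor of mesothelium, by 0.47 ± 0.09 (adjusted p = 0.00245). The remaining gene, Dcn, rose by 0.38 ± 0.10 (adjusted p = 0.0264), a call lost without either unexposed array, chow RBC replicate 2 or either high-fat RBC array (adjusted p = 0.0565 to 0.27). Msln and Upk3b, defining markers of mesothelium, were not called (-0.13 and 0.09), nor were Col3a1 (-0.03) and Pdgfrb (-0.19) of fibroblasts. The part of such cells in the contractile genes was not tested.

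The promoter of Myl9 holds the SRF site (CArG box) and that of Ankrd1 the TEAD site (MCAT, CATTCC on either strand), which are in capitals below.
Myl9 (chr2:156775284-156775463, plus strand): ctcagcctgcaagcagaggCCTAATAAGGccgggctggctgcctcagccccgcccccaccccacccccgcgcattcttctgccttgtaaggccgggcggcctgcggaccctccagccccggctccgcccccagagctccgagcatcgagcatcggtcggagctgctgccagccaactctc
Ankrd1 (chr19:36119845-36119974, minus strand): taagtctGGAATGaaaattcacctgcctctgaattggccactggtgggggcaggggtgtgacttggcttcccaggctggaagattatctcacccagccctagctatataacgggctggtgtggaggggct
A CArG box stood in 5 of 20 promoters (25%) of the contractile list in the RefSeq table against 1.4% of all promoters, and the TEAD site in 8 of 20 promoters (40%) against 12.6%. The TEAD site also stood in 3 of 7 promoters (42.9%) of the fibroblast and mesothelial markers.

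Most genes of cell division rose. Of 28 genes of mitosis, 22 rose, 0 fell and 6 did not pass, with a median difference of 0.58, beside 8.22% of all genes higher. Bub1, a kinase of the spindle checkpoint, read 3.56 and 3.49 without RBC, 5.08 and 5.12 after chow RBC, and 4.89 and 4.80 after high-fat RBC, and rose by 1.44 ± 0.11 (adjusted p = 1.5e-06). Top2a, the topoisomerase that untangles sister chromatids, read 5.05 and 5.11 without RBC, 6.31 and 6.38 after chow RBC, and 6.28 and 6.37 after high-fat RBC, and rose by 1.25 ± 0.09 (adjusted p = 1.07e-06). Cdk1, the kinase that starts mitosis, read 5.60 and 5.51 without RBC, 6.38 and 6.56 after chow RBC, and 6.41 and 6.39 after high-fat RBC, and rose by 0.88 ± 0.10 (adjusted p = 4.16e-05). All exposed arrays lay above both unexposed ones in these 3 genes, and in 26 of the 28 of the list, beside 20.2% of all genes. The 3 genes were called, and 2523 of the 2539 called genes showed no overlap in either direction. Prc1, Ube2c, Plk1 and Ccna2, of the central spindle, the anaphase-promoting complex, the mitotic kinases and the cyclins, rose by 1.06 ± 0.09 (adjusted p = 3.75e-06), 0.92 ± 0.10 (adjusted p = 3.21e-05), 0.87 ± 0.12 (adjusted p = 0.000373) and 0.77 ± 0.09 (adjusted p = 8.83e-05). The levels of these genes were low to moderate, with a mean over the list of 4.93 to 4.98 on the unexposed and 5.48 to 5.60 on the exposed arrays. Of 29 genes of DNA replication, 14 rose, 1 fell and 14 did not pass, with a median difference of 0.32, with ribonucleotide reductase Rrm2 and Rrm1 (0.93 and 0.90), primase Prim1 (0.85) and the helicase subunits Mcm6 and Mcm4 (0.72 and 0.62) among the rises. The count depended on single arrays (7 rose without unexposed replicate 1, and 0 fell without any of the 6 arrays). Of 19 D cyclins and cell cycle inhibitors, 5 rose, 2 fell and 12 did not pass, with a median difference of 0.23 (3 rose without either unexposed array, and 1 fell without unexposed replicate 2). The inhibitors of cyclin-dependent kinases Cdkn1b and Cdkn1c rose, by 0.74 ± 0.13 (adjusted p = 0.00174) and 0.68 ± 0.08 (adjusted p = 7.53e-05), and Gadd45b, an NF-kB and stress target, fell by 1.09 ± 0.19 (adjusted p = 0.00156).

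The promoter of Cdk1 is shown with the 2 elements that are typical of cell cycle genes in capitals, the cell cycle homology region (CHR, TTTGAA) and the CCAAT box, each on either strand.
Cdk1 (chr10:69352913-69353042, minus strand): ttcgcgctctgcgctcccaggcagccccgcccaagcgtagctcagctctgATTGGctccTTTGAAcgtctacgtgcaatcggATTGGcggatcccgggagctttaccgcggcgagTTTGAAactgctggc
The CHR stood in 8 of 23 promoters (34.8%) of the mitosis list in the RefSeq table against 16.3% of all promoters, and the CCAAT box in 19 of 23 promoters (82.6%) against 34.5%. Neither share was particular to this list. The CHR stood in 7 of 15 promoters (46.7%) of C-type lectin receptors. The CCAAT box stood in 15 of 18 promoters (83.3%) of endoplasmic reticulum chaperones and folding enzymes.

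Receptors and bridges for engulfment rose in part. Mertk, the receptor tyrosine kinase for dying cells, read 7.53 and 7.53 without RBC, 8.14 and 8.09 after chow RBC, and 8.32 and 8.22 after high-fat RBC, and rose by 0.66 ± 0.10 (adjusted p = 0.000497). The integrin chains Itgb3 and Itgb5, which bind dying cells through a bridging protein, rose by 0.90 ± 0.13 (adjusted p = 0.000311) and 0.71 ± 0.09 (adjusted p = 8.39e-05), and Havcr2 (TIM-3), which binds phosphatidylserine, by 0.68 ± 0.11 (adjusted p = 0.00133). Itgb3 is also on the list of platelet markers, and whether its transcript came from platelets or macrophages was not tested. Timd4, another phosphatidylserine receptor, fell by 0.60 ± 0.08 (adjusted p = 0.000291). Of 28 engulfment genes, 10 rose, 1 fell and 17 did not pass, with a median difference of 0.17 (6 rose without unexposed replicate 2). Of 8 Fc receptors, 2 rose, 1 fell and 5 did not pass, with a median difference of -0.09 (2 fell without chow RBC replicate 2 and 0 fell without unexposed replicate 1). Fcgr3 and Fcgr4, which take up antibody-coated cells, rose by 0.60 ± 0.09 (adjusted p = 0.000585) and 0.59 ± 0.10 (adjusted p = 0.00094). Of 28 lysosomal genes, 3 rose, 0 fell and 25 did not pass, with a median difference of 0.06, a share of rises near the 8.22% of all genes (0 rose without unexposed replicate 1 and 1 rose without unexposed replicate 2).

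Markers of alternative activation did not share a direction. Besides Arg1, Mrc1, the mannose receptor, rose by 0.54 ± 0.08 (adjusted p = 0.000771). Retnla, a secreted protein induced by interleukin 4, read 7.16 and 7.12 without RBC, 5.71 and 6.51 after chow RBC, and 6.06 and 6.26 after high-fat RBC and fell by 1.001 ± 0.18 (adjusted p = 0.00205). Of 18 markers, 4 rose, 5 fell and 9 did not pass, with a median difference of -0.06 (2 fell without unexposed replicate 2 or high-fat RBC replicate 2 and 3 fell without unexposed replicate 1). Hgf, the hepatocyte growth factor, read 5.30 and 5.48 without RBC, 7.29 and 7.09 after chow RBC, and 7.29 and 7.06 after high-fat RBC and rose by 1.79 ± 0.10 (adjusted p = 9.51e-08).

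Matrix-degrading enzymes and their inhibitors also divided. The inhibitors Timp3 and Timp1 rose by 1.55 ± 0.17 (adjusted p = 4.01e-05) and 0.97 ± 0.15 (adjusted p = 0.000861), and Mmp8, a collagenase also made by neutrophils, by 1.36 ± 0.13 (adjusted p = 8.62e-06). Mmp14, Mmp9 and Mmp19 fell by 0.74 ± 0.12 (adjusted p = 0.000739), 0.74 ± 0.10 (adjusted p = 0.000306) and 0.54 ± 0.10 (adjusted p = 0.00184), and Adam17, which releases TNF from the cell surface, by 0.72 ± 0.12 (adjusted p = 0.00104). Of 20 such genes, 6 rose, 6 fell and 8 did not pass, with a median difference of 0.10 (3 rose without unexposed replicate 2).

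Genes that handle heme and iron did not share a direction. Hmox1 was among the brightest genes and read 11.88 and 11.94 without RBC, 11.92 and 11.92 after chow RBC, and 11.91 and 11.85 after high-fat RBC. It was not called (-0.01 ± 0.10, adjusted p = 0.976). Slc40a1 read 3.74 and 3.95 without RBC, 4.04 and 4.07 after chow RBC, and 4.21 and 4.56 after high-fat RBC. These signals were low, under the median over genes of each chow macrophage array (5.24 to 5.29). Slc40a1 was not called (0.37 ± 0.13, adjusted p = 0.0828), although its exposed arrays lay above both unexposed ones, as in 20.2% of all genes. Fth1, the ferritin heavy chain (-0.01 ± 0.08, adjusted p = 0.925), and Tfrc, the transferrin receptor (-0.28 ± 0.11, adjusted p = 0.113), were not called either. The largest change was in Hp, which codes for haptoglobin, the plasma protein that binds free hemoglobin, and which read 10.07 and 10.16 without RBC, 7.80 and 7.78 after chow RBC, and 7.72 and 7.75 after high-fat RBC and fell by 2.35 ± 0.10 (adjusted p = 3.3e-09). Abcg2, which exports porphyrins, rose by 0.71 ± 0.08 (adjusted p = 4.06e-05). Slc25a37 (mitoferrin 1) and Slc11a2 (DMT1), which carry iron into mitochondria and across membranes, fell by 0.64 ± 0.09 (adjusted p = 0.000304) and 0.58 ± 0.10 (adjusted p = 0.00125). Rises made up 10.5% of the iron list, near the 8.22% of all genes, and falls 10.5%, beside 4.51%. Spic, a transcription factor of iron-recycling macrophages, fell by 0.55 ± 0.15 (adjusted p = 0.033), a call lost without either unexposed array, chow RBC replicate 2 or high-fat RBC replicate 1 (adjusted p = 0.0871 to 0.221). Of 15 heme genes, 2 rose, 3 fell and 10 did not pass, with a median difference of -0.01 (1 rose without any of the 6 arrays, and 1 fell without either unexposed array). Of 19 iron genes, 2 rose, 2 fell and 15 did not pass, with a median difference of 0.04 (1 rose without unexposed replicate 1, either chow RBC array or either high-fat RBC array and 0 rose without unexposed replicate 2).

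Antioxidant genes did not share a direction. Sod2, the mitochondrial superoxide dismutase and an NF-kB target, read 10.01 and 9.92 without RBC, 8.55 and 8.46 after chow RBC, and 8.51 and 8.35 after high-fat RBC, and fell by 1.496 ± 0.08 (adjusted p = 8.35e-08). Abcc1, which exports glutathione conjugates, fell by 0.80 ± 0.08 (adjusted p = 1.73e-05) and Sqstm1, an autophagy receptor, by 0.53 ± 0.08 (adjusted p = 0.0007). Of 27 genes of NRF2, glutathione and antioxidant defence, 3 rose, 7 fell and 17 did not pass, with a median difference of -0.03 (1 rose without high-fat RBC replicate 1 and 0 rose without unexposed replicate 2, and 4 fell without unexposed replicate 2). Abca1, which exports cholesterol, was not called (0.04 ± 0.09, adjusted p = 0.795), nor was Cd36, a scavenger receptor for oxidized lipid (0.21 ± 0.08, adjusted p = 0.0942). Pltp, the phospholipid transfer protein, fell by 0.74 ± 0.09 (adjusted p = 7.12e-05). Of 16 LXR targets, 0 rose, 3 fell and 13 did not pass, with a median difference of -0.04 (1 fell without either unexposed array, chow RBC replicate 1 or high-fat RBC replicate 1). Of 24 genes of sterol and fatty acid synthesis, 3 rose, 0 fell and 21 did not pass, with a median difference of 0.16 (1 fell without chow RBC replicate 1). Dhcr7, the last enzyme of cholesterol synthesis, rose by 0.70 ± 0.11 (adjusted p = 0.000606), and Fads2, a fatty acid desaturase, by 0.66 ± 0.10 (adjusted p = 0.000814). Rises made up 12.5% of the sterol and fatty acid list and 11.1% of the oxidative phosphorylation list below. Both shares lay near the 8.22% of all genes. Of 25 genes of lipid uptake, storage and oxidation, 5 rose, 0 fell and 20 did not pass, with a median difference of 0.12 (3 rose without high-fat RBC replicate 1, 1 rose without unexposed replicate 1 and 2 rose without unexposed replicate 2). Of 18 genes of oxidative phosphorylation, 2 rose, 0 fell and 16 did not pass, with a median difference of 0.22 (1 rose without unexposed replicate 1, either chow RBC array or either high-fat RBC array and 0 rose without unexposed replicate 2).

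In other lists the counts depended on single arrays. Of 27 immediate early genes, which answer growth factors within minutes, 3 rose, 9 fell and 15 did not pass, with a median difference of -0.20 (1 rose without either unexposed array, chow RBC replicate 1 or high-fat RBC replicate 1, and 4 fell without unexposed replicate 1, chow RBC replicate 2 or high-fat RBC replicate 1, 3 fell without high-fat RBC replicate 2 and 2 fell without unexposed replicate 2). Fosl1, a partner of Jun proteins, and the phosphatase Dusp4 fell by 0.59 ± 0.10 (adjusted p = 0.00186) and 0.66 ± 0.11 (adjusted p = 0.0011), and the phosphatase Dusp6 rose by 0.57 ± 0.09 (adjusted p = 0.000627). Of 10 metallothionein and zinc genes, 2 rose, 2 fell and 6 did not pass, with a median difference of -0.08 (1 rose without unexposed replicate 2, chow RBC replicate 2 or high-fat RBC replicate 1, and 1 fell without unexposed replicate 2), with the zinc importer Slc39a10 higher (0.95 ± 0.08, adjusted p = 3.75e-06) and the metal-binding Mt2 lower (-0.59 ± 0.11, adjusted p = 0.0028). Of 16 complement genes, 1 rose, 2 fell and 13 did not pass, with a median difference of 0.09 (0 rose without unexposed replicate 2, and 1 fell without unexposed replicate 2). Cfb, a protease of the alternative pathway, read 10.52 and 10.45 without RBC, 9.29 and 9.002 after chow RBC, and 9.20 and 9.16 after high-fat RBC and fell by 1.32 ± 0.09 (adjusted p = 5.33e-07). Of 11 genes of the macrophage Ms4a family, 0 rose, 3 fell and 8 did not pass, with a median difference of -0.25 (1 fell without unexposed replicate 1). Ms4a4c fell by 1.25 ± 0.15 (adjusted p = 8.24e-05). Of 11 heat shock genes, 2 rose, 1 fell and 8 did not pass, with a median difference of 0.14 (1 rose without chow RBC replicate 2 and 0 rose without unexposed replicate 2, and 0 fell without unexposed replicate 2).

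Some markers of neutrophils and platelets were higher on the arrays given RBC. S100a9, a calcium-binding protein of neutrophils and monocytes, read 4.28 and 4.76 without RBC, 9.58 and 9.71 after chow RBC, and 9.96 and 9.79 after high-fat RBC. It rose by 5.24 ± 0.12 (adjusted p = 9.88e-12), the largest difference of all genes, whereas its partner S100a8 was already bright without RBC and read 10.11 and 9.90 without RBC, 10.57 and 10.86 after chow RBC, and 10.86 and 10.72 after high-fat RBC (0.75 ± 0.11, adjusted p = 0.000561). Ppbp, a platelet chemokine, read 5.79 and 5.05 without RBC, 9.48 and 9.64 after chow RBC, and 8.44 and 9.39 after high-fat RBC, and rose by 3.82 ± 0.26 (adjusted p = 3.92e-07); high-fat RBC replicate 1 was the lowest exposed array. Of 16 neutrophil markers, 5 rose, 1 fell and 10 did not pass, with a median difference of 0.17, and the mean level of the list was 5.25 to 5.26 on the unexposed and 5.80 to 5.89 on the exposed arrays. Retnlg and Cxcr2, a secreted protein and a chemokine receptor of neutrophils, rose by 1.70 ± 0.13 (adjusted p = 1.83e-06) and 1.04 ± 0.11 (adjusted p = 2.54e-05). The granule genes Camp, Ngp, Ltf and Mpo and the surface marker Ly6g stayed at means of 2.95 to 4.94 on the exposed arrays, and none was called. The neutrophil marker that fell was Mmp9 (-0.74), given above with the matrix-degrading enzymes. Of 12 platelet markers, 5 rose, 0 fell and 7 did not pass, with a median difference of 0.18, and the mean level of the list was 5.65 to 5.69 on the unexposed and 6.10 to 6.46 on the exposed arrays. Clec1b and Gp9, platelet surface receptors, rose by 1.20 ± 0.11 (adjusted p = 6.22e-06) and 0.998 ± 0.16 (adjusted p = 0.00098). Itgb3, given above with the engulfment genes, was also among the platelet markers that rose. Itga2b (0.21), Gp5 (0.16) and Tubb1 (0.02), also typical of platelets, were not called.

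Erythroid genes apart from the globins did not share a direction. Bpgm, which makes 2,3-bisphosphoglycerate, rose by 0.95 ± 0.12 (adjusted p = 0.000126). Alas2, which starts heme synthesis in erythroid cells, read 5.05 and 4.898 without RBC, 6.02 and 6.12 after chow RBC, and 5.39 and 5.80 after high-fat RBC, and rose by 0.86 ± 0.21 (adjusted p = 0.0146), a call lost without either unexposed array or high-fat RBC replicate 2 (adjusted p = 0.0519 to 0.158). Slc4a1 (band 3, -0.19) and Klf1 (-0.11) were not called. The larger of the 2 called falls was in Slc25a37 (-0.64), given above with the iron genes. Of 16 erythroid genes, 2 rose, 2 fell and 12 did not pass, with a median difference of -0.11 (1 rose without either unexposed array or high-fat RBC replicate 2, and 1 fell without unexposed replicate 2 or high-fat RBC replicate 2). Ctla2a, an inhibitor of cysteine proteases, and Cytip, which binds the cytohesin family in leukocytes, were 2 further large rises: Ctla2a read 3.91 and 3.80 without RBC, 6.85 and 6.78 after chow RBC, and 6.14 and 6.93 after high-fat RBC (2.82 ± 0.20, adjusted p = 8.48e-07) and Cytip read 5.83 and 5.81 without RBC, 8.08 and 8.06 after chow RBC, and 7.63 and 7.89 after high-fat RBC (2.10 ± 0.14, adjusted p = 3.38e-07). The source of these transcripts, carried-over blood cells or the macrophages, was not tested. Of 14 markers of T and NK cells, 0 rose, 1 fell and 13 did not pass, with a median difference of -0.06 (0 fell without unexposed replicate 2, chow RBC replicate 2 or either high-fat RBC array and 2 fell without unexposed replicate 1). Of 6 of eosinophils, 0 rose, 0 fell and 6 did not pass, with a median difference of 0.01 (1 rose without chow RBC replicate 1), and of 10 of mast cells and basophils, 1 rose, 0 fell and 9 did not pass, with a median difference of -0.03 (0 rose without either unexposed array). Of 10 of dendritic cells, 1 rose, 0 fell and 9 did not pass, with a median difference of -0.10, and of 7 of adipocytes, 1 rose, 0 fell and 6 did not pass, with a median difference of -0.05 (0 rose without unexposed replicate 2). The dendritic cell marker that rose was Fscn1, which bundles actin (1.03 ± 0.11, adjusted p = 3.39e-05).

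**Figure D4:**
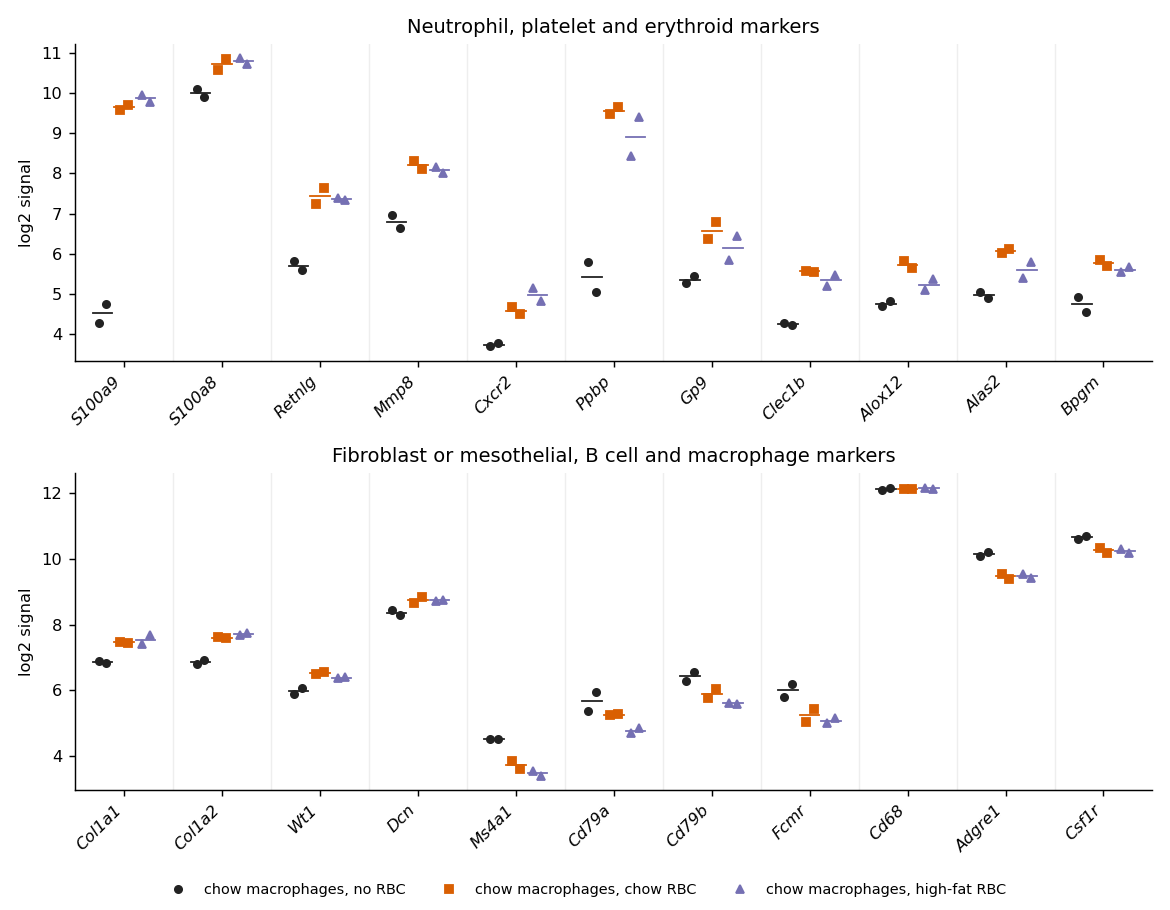
Log2 signal of markers of other cell types and of macrophages on each of the 6 arrays of chow macrophages; symbols are arrays and short bars means of 2 arrays. S100a9 and Ppbp separate the exposed from the unexposed arrays most, collagen genes are higher and B cell genes lower with RBC, and Cd68 stays near 12.1 on all arrays.

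Chow RBC and high-fat RBC were each set against the same 2 unexposed arrays, which makes the 2 comparisons dependent. Chow RBC gave 1830 called genes (9.18%) and high-fat RBC 1663 (8.34%). For Ptges the differences were -3.50 and -3.71, for Tnf -1.68 and -1.76, for Acta2 2.25 and 2.28, and for Top2a 1.26 and 1.24, with chow RBC first. Leaving out each of the 6 arrays in turn gave 726 to 1546 called genes for chow RBC and 710 to 1623 for high-fat RBC, the lowest without unexposed replicate 2 for chow RBC and without high-fat RBC replicate 2 for high-fat RBC.

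Set directly against each other (2 arrays against 2), the 2 kinds of RBC gave 0 called genes (0%), with 555 genes at an unadjusted p below 0.05 and a smallest adjusted p of 0.115. High-fat minus chow RBC was -0.08 (95% interval -0.31 to 0.15) for Tnf, -0.21 (95% interval -0.50 to 0.08) for Ptges, 0.03 (95% interval -0.25 to 0.30) for Myl9 and -0.02 (95% interval -0.25 to 0.21) for Top2a. For Hmox1 it was -0.04 (95% interval -0.29 to 0.21), and for Ccl2 0.16 (95% interval -0.24 to 0.55). The genes with the smallest p were Gpr84, at -0.79 (95% interval -1.03 to -0.55), and Egln3, a hypoxia-induced prolyl hydroxylase, at -1.34 (95% interval -1.77 to -0.91). Egln3 read 4.94 and 4.86 without RBC, 6.61 and 5.84 after chow RBC, and 5.11 and 4.67 after high-fat RBC, so that it was high on the 2 arrays given chow RBC, chow RBC replicate 1 above all. Ankrd37, another hypoxia-induced gene, showed the same order at 6.06 and 5.80 without RBC, 7.58 and 6.93 after chow RBC, and 6.36 and 5.89 after high-fat RBC. Egln3 alone was called without chow RBC replicate 2 (difference -1.72, adjusted p = 0.00838). Without high-fat RBC replicate 1, Irf1 and the interferon-induced GTPase Iigp1 were called higher with high-fat RBC (adjusted p = 0.0284 for each) where the remaining array, high-fat RBC replicate 2, read 7.89 for Irf1. Of 27 genes of glycolysis and hypoxia, 5 rose, 1 fell and 21 did not pass, with a median difference of 0.12 over both kinds of RBC (2 rose without unexposed replicate 2), among them Pdk1, which keeps pyruvate out of mitochondria (0.91 ± 0.13, adjusted p = 0.000408). Taken separately against the unexposed arrays, 5 of these genes rose and 1 fell with chow RBC, and 2 rose and 2 fell with high-fat RBC.

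How exposure acted in macrophages of chow-fed mice, as opposed to those of mice on the high-fat diet, was tested as a difference of the 2 responses (high-fat minus chow macrophages). It was called in 1131 genes (5.67%), more positive in high-fat macrophages in 513 (2.57%) and more negative in 618 (3.10%). Leaving out any 1 of the 12 arrays gave 558 to 1115 called genes, the lowest without unexposed replicate 2 of the chow macrophages. Macrophage diet and donor sex cannot be told apart here: Xist, expressed from the inactive X chromosome, lay at 9.07 to 9.44 on all chow macrophage arrays and at 3.22 to 4.14 on all high-fat macrophage arrays, and the Y-linked Eif2s3y at 2.76 to 3.42 and 7.38 to 7.72. No such contrast exists among the 6 chow macrophage arrays.

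Cxcl2, Acod1 and Ptges, which fell with RBC in chow macrophages, had lower means without RBC in high-fat than in chow macrophages. Cxcl2 had group means in high-fat macrophages of 5.34 without RBC, 7.30 after chow RBC and 8.12 after high-fat RBC, so it rose there (2.36 ± 0.13, adjusted p = 3.93e-07), and its responses differed by 5.07 ± 0.18, adjusted p = 4.62e-09. Acod1 had means of 6.19 without RBC, 8.37 after chow RBC and 8.51 after high-fat RBC (5.02 ± 0.22, adjusted p = 1.42e-08), beside 8.48 over the exposed chow macrophages. Ptges stayed low in all 3 groups of high-fat macrophages, at 6.53 without RBC, 6.54 after chow RBC and 6.48 after high-fat RBC (3.58 ± 0.17, adjusted p = 2.16e-08), near the exposed chow macrophages. Gpr84 and Cxcl3 differed by 3.43 ± 0.14, adjusted p = 9.82e-09 and 3.39 ± 0.26, adjusted p = 3.93e-06. The interferon-stimulated Ifit3, Ifit1 and Rtp4 differed by 3.64 ± 0.27, adjusted p = 2.58e-06, 3.55 ± 0.24, adjusted p = 1.05e-06 and 3.48 ± 0.23, adjusted p = 1.02e-06. Of the 32 interferon-stimulated genes, 28 were more positive in high-fat macrophages, and of the 18 NF-kB components, 15 (2.57% of all genes were). None of either list was more negative.

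For some contractile and mitotic genes the difference of the 2 responses was negative. Within high-fat macrophages, 6 of the 25 contractile genes rose with RBC and 0 fell. Of the 28 mitosis genes 0 rose and 0 fell there. Myl9 had means in high-fat macrophages of 7.32 without RBC, 8.23 after chow RBC and 7.95 after high-fat RBC, against 5.10 in unexposed chow macrophages (-2.02 ± 0.16, adjusted p = 4.02e-06). Acta2 had means of 9.45 without RBC, 9.995 after chow RBC and 9.84 after high-fat RBC (-1.79 ± 0.15, adjusted p = 9.08e-06), and Ankrd1 differed by -1.52 ± 0.18, adjusted p = 0.000139. Bub1 lay at 4.87 without RBC, 4.86 after chow RBC and 4.79 after high-fat RBC (-1.49 ± 0.16, adjusted p = 6.51e-05). Of the contractile list 9 of 25 and of the mitosis list 12 of 28 were more negative, beside 3.10% of all genes, and none more positive. Cmbl, a hydrolase (-1.67 ± 0.16, adjusted p = 3.2e-05), Gm5150, a predicted gene (-1.70 ± 0.22, adjusted p = 0.000304), Ankrd37 (-1.44 ± 0.24, adjusted p = 0.00212) and Kctd12b (-1.44 ± 0.21, adjusted p = 0.00086) complete the 8 most negative. Thbs1 rose in macrophages of both diets, with means in high-fat macrophages of 8.88 without RBC, 10.27 after chow RBC and 10.16 after high-fat RBC (1.33 ± 0.09, adjusted p = 1.23e-06), and its difference was not called (-0.42 ± 0.12, adjusted p = 0.0679). Vegfa rose in both as well, by 0.96 ± 0.13, adjusted p = 0.00116 in high-fat macrophages, and its difference was not called either (0.08 ± 0.18, adjusted p = 0.887).

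**Figure D5:**
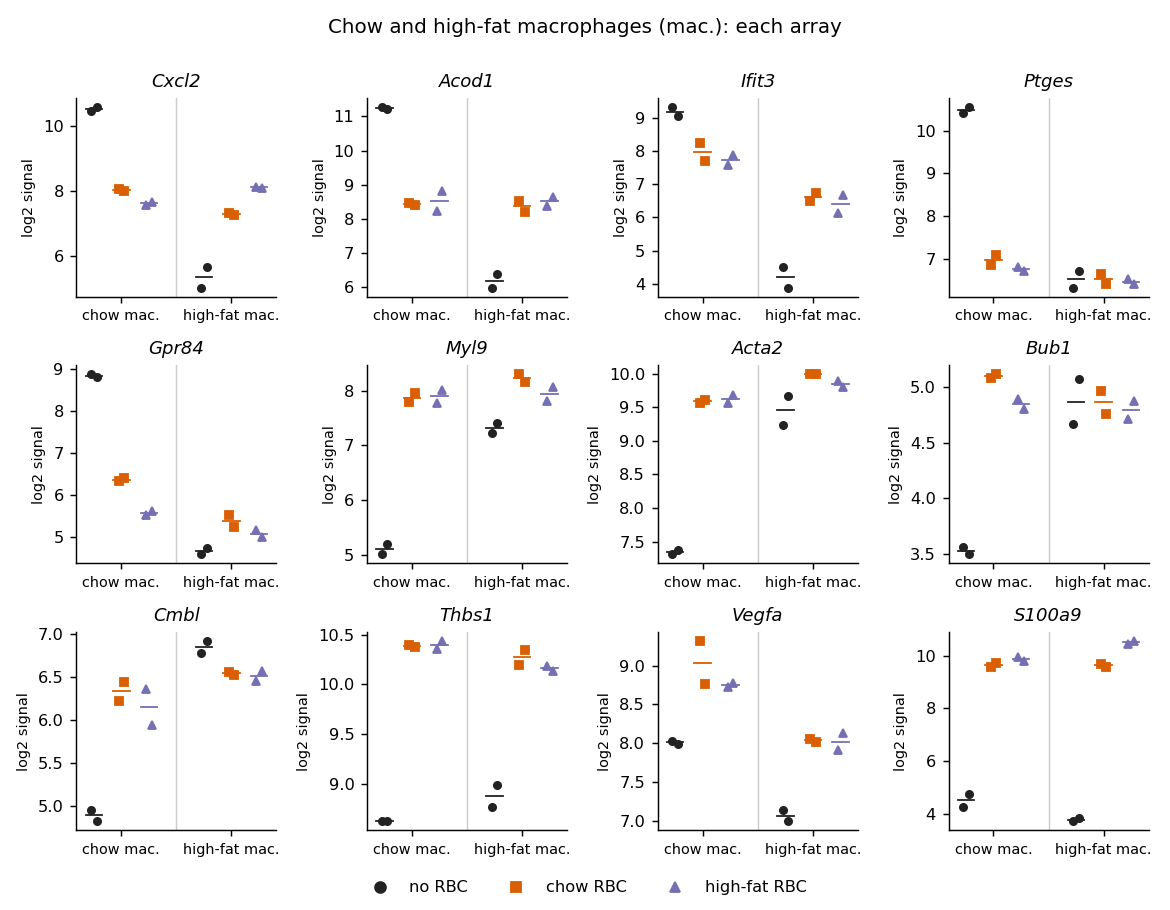
Log2 signal of 12 genes on each of the 12 arrays, chow macrophages on the left and high-fat macrophages on the right of each panel; symbols are arrays, short bars means of 2 arrays, and panels have their own axis ranges. For Myl9, Acta2 and Bub1 the unexposed chow macrophages stand apart. For Cxcl2 and Acod1 the unexposed chow macrophages lie highest and the mean of the unexposed high-fat macrophages lowest. Thbs1, Vegfa and S100a9 are higher with RBC in macrophages of either diet.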

How the data were processed

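RNA of 12 samples was measured on Affymetrix Mouse Gene ST arrays, in 6 groups of 2. The authors deposited log2 signals per probe set. The steps of summarization and normalization are not given in the sources used here. The values span a range typical of log2 data, from which the scale was taken. Of 35556 probe sets with values, 23410 were in the annotation table, 21789 with a single symbol and 1621 with several, which named no gene. The brightest probe set stood for each of 999 genes with more than 1.

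limma 3.58.1 (R 4.3.3) fitted 1 mean per group over all 12 arrays (6 residual degrees of freedom), without a replicate block. Nothing in the labels says that equal animal numbers are the same animal across groups. The p-values rest on the spread between replicates pooled over all 6 groups, and 2 arrays a group limit the precision. The pool includes the high-fat macrophage groups, whose replicates differed by a standard deviation of 0.17 to 0.24 over genes. The fit was also run on simulated data with independent errors for each array. That run cannot show how the fit behaves if arrays share animals.

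The comparison, its 50 gene lists (849 of 937 genes measured) and the fit were chosen with earlier results of these data known. Named are the 15 largest rises and falls whose groups do not overlap, up to 6 called members of a list each way, the 8 largest differences between macrophage diets each way, and fixed genes. Genes named outside these rules were chosen after their values were seen. Promoters are those of RefSeq (GRCm38.p6). The alternatives were quantile normalization, a filter on dim genes, an intensity trend, array weights, a replicate block, other probe set rules, fewer arrays and other thresholds.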

Additional observations from a re-analysis of the deposited data

Results flagged for a closer look

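The response to RBC differed between macrophages of the 2 diets by the test of the difference itself in 513 genes that were more positive in high-fat macrophages and 618 that were more negative. The most positive were Cxcl2 (5.07), Acod1 (5.02), Ifit3 (3.64), Ptges (3.58), Ifit1 (3.55), Rtp4 (3.48), Gpr84 (3.43) and Cxcl3 (3.39), as log2 differences of the limma fit. The most negative were Myl9 (-2.02), Acta2 (-1.79), Gm5150 (-1.70), Cmbl (-1.67), Ankrd1 (-1.52), Bub1 (-1.49), Ankrd37 (-1.44) and Kctd12b (-1.44). These 16 genes kept their direction and call in every alternative fit in which they were tested, the leaving out of each array included. Macrophage diet and donor sex cannot be told apart in any of them.

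The probe sets shared by several globin genes lay outside the comparison of single-symbol genes and were far higher on the exposed than on the unexposed arrays of chow macrophages, by 6.06 and 6.12 (log2) in the case of the alpha chain and by 7.44 and 7.56 in that of the beta chain.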

How the results depend on the processing

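With an adjusted p below 0.10 in place of 0.05, exposure gave 3919 called genes (1613 lower), chow RBC 976 lower genes and high-fat RBC 2623 called genes (1054 lower). Asking also for a 1.5-fold change left 697 genes for exposure (442 higher, 255 lower), 749 for chow RBC (491 higher, 258 lower), 679 for high-fat RBC (413 higher, 266 lower) and 403 more negative genes for the difference between macrophage diets. Array weights raised the count for high-fat RBC to 2872 (1665 higher, 1207 lower), and the cause was not tested. Leaving out 1 array in turn gave 956 to 2239 genes for exposure (607 to 1440 higher, 349 to 799 lower), 726 to 1546 for chow RBC (455 to 1062 higher, 271 to 484 lower), 710 to 1623 for high-fat RBC (432 to 1047 higher, 277 to 576 lower), 0 to 2 between the kinds of RBC (0 to 2 higher, 0 to 1 lower) and 558 to 1115 for the difference (311 to 613 more positive, 247 to 593 more negative). The last range includes the arrays of high-fat macrophages, which were added after the data were seen. The lowest counts came without unexposed replicate 2 for exposure, chow RBC and the difference, and without high-fat RBC replicate 2 for high-fat RBC.

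The replicate block, with the animal number within each macrophage diet as a term, gave 2720 genes for exposure. Between the kinds of RBC it called 2 genes, both lower with high-fat RBC, Ankrd37 (-1.13, adjusted p = 0.00705) and Egln3 (-1.34, adjusted p = 0.0173). The labels do not say that the numbers pair the arrays, and the deviations of same-numbered arrays of chow macrophages correlated over genes at 0.14, -0.02 and 0.03.

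Of 160 called genes named here, 148 kept their call and direction in every other fit in which they were tested. The thresholds of 0.10 and 1.5-fold were applied to the counts only, not to single genes. The filter on dim genes left 178 of the 188 named genes to test. The log2 difference of 11 genes near 0, none of them called, changed sign in some setting. With 1 array left out in turn it ran from -0.0069 to 0.0962 for Abca1, -0.21 to 0.0266 for Camp, -0.13 to 0.22 for Ccl2, -0.0054 to 0.0411 for Cd68, -0.0889 to 0.0382 for Col3a1, -0.0016 to 0.33 for Gp5, -0.0334 to 0.0203 for Hmox1, -0.17 to 0.27 for Iigp1, -0.29 to 0.0225 for Ly6g and from -0.26 to 0.17 for Nos2. With quantile normalization it was -0.0499 for Cd68, 0.0442 for Nos2 and -0.0133 for Tubb1.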
